A study of Rattus norvegicus with 8 samples.

Results

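Kcnq3, Kcnq5, Kcnh1, Kcnh3 and Kcnh7 are 5 neuronal potassium channel genes, examined here in the medial prefrontal cortex of rats at the 2 ends of motor impulsivity. They are the rows that carry these 5 symbols, out of 17168 genes in the deposited tables, and all 5 were among the 11631 genes left after a filter on low counts. Homogenate of medial prefrontal cortex from male Sprague-Dawley rats was sequenced in 8 libraries, 4 of highly impulsive rats (HI) and 4 of rats low in motor impulsivity (LI). Impulsivity was the number of premature responses in a task in which a rat must wait for a cue, and HI and LI are the top and bottom quartiles of that score. The labels name no drug, genotype or age for either group, and they give 4 to 6 rats per phenotype without saying that each library is 1 animal. Libraries are called HI1 to HI4 and LI1 to LI4 after their replicate numbers. Except where stated, p-values set the difference between the groups against the spread between these libraries.

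KCNQ and KCNH genes encode pore-forming subunits of voltage-gated potassium channels. Kcnq3 assembles with other KCNQ subunits, Kcnq5 among them, into the channel of the M-current, a slow potassium current that opens near the firing threshold and restrains repetitive firing. Acetylcholine closes the channel through muscarinic receptors, Gq and phospholipase C, because the channel needs the membrane lipid PIP2 to stay open. The KCNH family has 3 branches, and the genes described here cover each of them: Kcnh1 is an ether-a-go-go (EAG) channel, Kcnh7 an EAG-related (ERG) channel and Kcnh3 an EAG-like (ELK) channel. ERG and ELK channels are also known to limit the excitability of neurons.

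Promoters are shown for every gene of the 5 that the promoter table lists, whatever its values across the libraries. Their part in those values was not tested. RefSeq's promoter table for rat assembly GRCr8 was matched by symbol for 3 of the 5 genes, and Kcnq3 and Kcnh3 are named only. The 250 bases before each listed start are printed on the gene's strand, with every GGGCGG or its reverse complement CCGCCC, the GC box bound by Sp1, in capitals. They lie at chr9:31891282-31891531 (minus strand) for Kcnq5, chr3:68230672-68230921 (minus strand) for Kcnh7 and chr13:106252966-106253215 (plus strand) for Kcnh1.
Kcnq5: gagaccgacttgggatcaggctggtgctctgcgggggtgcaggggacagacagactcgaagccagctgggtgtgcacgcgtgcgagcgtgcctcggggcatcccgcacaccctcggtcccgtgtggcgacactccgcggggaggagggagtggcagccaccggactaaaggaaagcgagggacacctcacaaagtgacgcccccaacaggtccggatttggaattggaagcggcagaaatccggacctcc
Kcnh7: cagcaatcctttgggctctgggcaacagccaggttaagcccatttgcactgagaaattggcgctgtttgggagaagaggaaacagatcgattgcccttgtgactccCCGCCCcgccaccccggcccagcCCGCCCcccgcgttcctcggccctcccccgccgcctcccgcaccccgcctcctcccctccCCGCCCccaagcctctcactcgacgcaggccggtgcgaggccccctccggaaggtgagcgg
Kcnh1: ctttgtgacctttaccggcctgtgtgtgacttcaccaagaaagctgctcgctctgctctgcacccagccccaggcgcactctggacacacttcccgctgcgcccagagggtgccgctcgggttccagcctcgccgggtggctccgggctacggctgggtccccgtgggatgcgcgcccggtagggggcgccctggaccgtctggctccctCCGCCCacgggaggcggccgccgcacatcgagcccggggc

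All 3 windows were rich in CpG. They held 20 CpG dinucleotides in Kcnq5, 20 in Kcnh7 and 24 in Kcnh1, where the median of 33469 promoter windows of the same length was 5 and the upper quartile 15. G and C made up 65.2% of the Kcnq5 window, 69.2% of Kcnh7 and 71.6% of Kcnh1, against a median of 51.2% and an upper quartile of 60%. The GC box occurred 3 times in Kcnh7, 1 time in Kcnh1 and 0 times in Kcnq5, and 30.5% of all windows held at least 1. The shares over all windows are not matched for G and C content. The half-site TGACG of the cyclic AMP response element, read on both strands, occurred 1 time in Kcnq5 and 0 times in Kcnh7 and Kcnh1, against 18.2% of all windows. The whole element TGACGTCA, the Egr site GCGNGGGCG, the AP-1 site TGANTCA, the TATA box TATAAA and the E-box CACGTG had no match in any of the 3 windows. The shares of all windows with these were 1.59%, 4.29%, 6.34%, 12.9% and 5.59% in that order. The searched motifs can overlap, since every TGACGTCA contains TGACG and the end of an Egr site can overlap a GC box.

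Total counts per library ranged from 7354416 to 9476656. HI4 and LI3 lay highest on the first principal component, which held 51.7% of the variance, at 51.0 in HI4 and 34.6 in LI3. HI3 and LI4 lay near 0, at 0.50 and 2.05, and HI1, HI2, LI1 and LI2 between -25.9 and -13.0. In both groups replicates 1 and 2 thus lay below replicates 3 and 4. HI4 and LI3 carried the least ribosomal RNA, 0.406% of counts in HI4 and 0.418% in LI3. HI2 carried the most, 25.5%. Excitatory neuron markers (9 genes) were detected in every library, with a summed level of 1789 to 2450 CPM in HI, against 1816 to 2101 CPM in LI. LI2 stood out by its markers of oligodendrocytes (6586 CPM, against 1724 to 3511 CPM in the other 7 libraries) and of striatum (833 CPM, against 326 to 370 CPM), and HI1 by meningeal markers (858 CPM, against 29.7 to 217 CPM). No marker of these lists was at 0 counts in any library.

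Levels between genes were compared in TPM, which corrects for transcript length. Kcnh3 was the most abundant of the 5 genes, at 130 ± 29.0 TPM in HI and 131 ± 25.8 TPM in LI (SD, n = 4 each). Kcnq5 followed at 90.4 ± 21.5 TPM in HI and 74.0 ± 8.41 TPM in LI. Kcnh1 stood at 44.4 ± 4.20 TPM in HI and 39.2 ± 4.26 TPM in LI, and Kcnq3 at 42.0 ± 4.41 TPM in HI and 31.9 ± 2.28 TPM in LI. Kcnh7 was the least abundant, at 27.9 ± 8.86 TPM in HI and 18.8 ± 2.75 TPM in LI. By its mean over the 8 libraries, Kcnh3 lay above 86.6% of the genes tested and Kcnh7 above 44.7%.

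This order was kept within libraries with few exceptions. Kcnq5 lay above Kcnh1, and Kcnq3 above Kcnh7, in 8 of 8 libraries. Kcnh3 lay above Kcnq5 in 7 of 8, with HI4 the exception, where Kcnq5 had 115 TPM and Kcnh3 87.6 TPM. Kcnh1 lay above Kcnq3 in 7 of 8, with HI1 the exception, and the means of these neighbours over the 8 libraries, 41.8 ± 4.81 and 37.0 ± 6.28 TPM (SD, n = 8), differed by less than the SD of Kcnq3.

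Between the groups, values were compared as CPM, the share of the TMM-scaled library. Kcnq3, Kcnq5, Kcnh1 and Kcnh7 had higher mean values in HI and Kcnh3 had nearly equal ones. By edgeR's quasi-likelihood test with Benjamini-Hochberg adjustment, 0 of the 5 reached the threshold of 0.1 (adjusted p = 1.00 for each), as did 0 of 11631 genes (0%). An unadjusted p under 0.05 was found for 484 of the 11631 genes, fewer than that cut-off gives when no gene differs. DESeq2 called 38 genes. A value higher in HI, as in 4 of the 5, was found in 48.5% of all genes tested. An unadjusted p under 0.05 with the higher value in HI was found for 2 of the 5, Kcnq3 and Kcnh7, and for 3.07% of all genes. The groups did not overlap, with HI on top, in 1 of the 5, Kcnq3, and in 2.31% of all genes. The median log2 fold change was 0.28 over the 5 genes and -0.01 over all genes tested. It was -0.11 over 5 tested KCNQ and KCNH relatives outside the set, 2 of them higher in HI. The 5 genes were chosen with earlier results of these data known, so the shares set beside them are a description and no test. Fisher's exact test on counts summed per group, the test named in the study's design, called 5 of the 5, where it called 56.8% of all genes. It put 4 of the 5 higher in HI, where it put 12.7% of all genes, and Kcnh3 lower, and it takes no account of the spread between libraries.

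**Figure D1:**
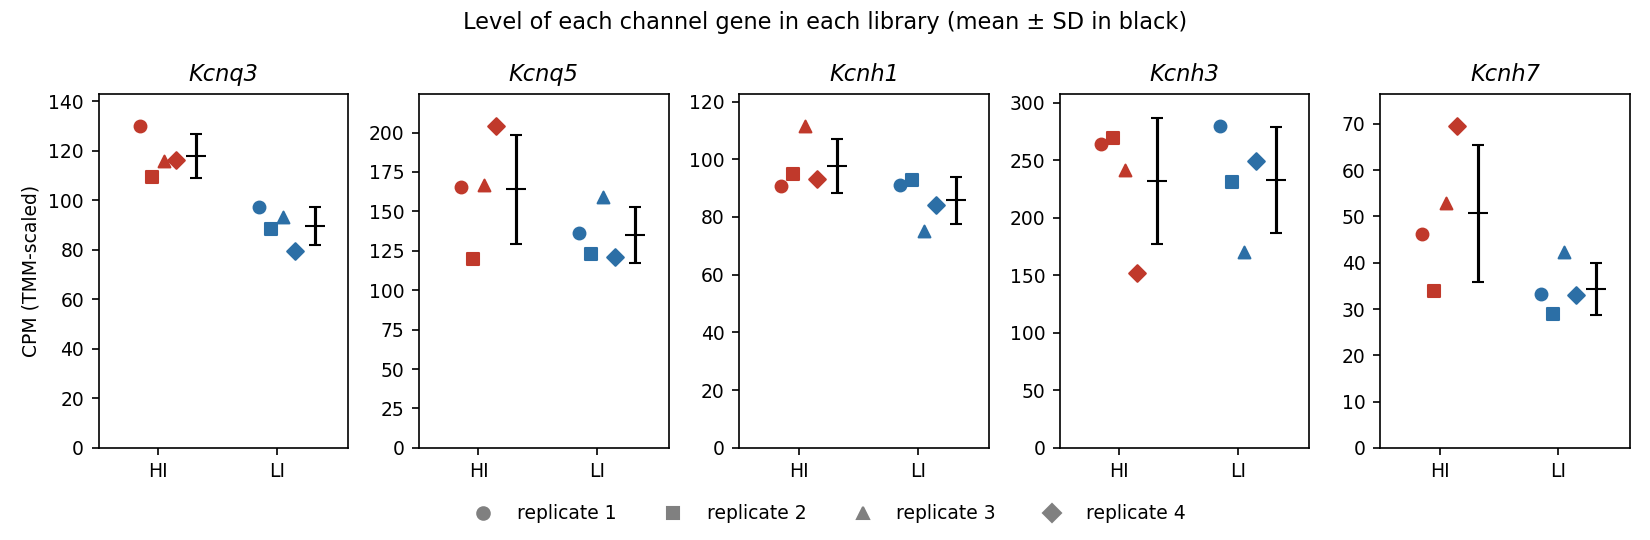
Level of each of the 5 genes in CPM (vertical axes, from 0) in the HI libraries (red, left) and the LI libraries (blue, right), with the mean ± SD in black and 1 marker shape per replicate number. Kcnq3 is the gene in which the 4 HI points, 109 to 130 CPM, all lie above the 4 LI points, 79.6 to 97.1 CPM.

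Kcnq3, the subunit shared by M-channels of different composition, separated the groups. It had 130, 109, 116 and 116 CPM in HI1 to HI4, against 97.1, 88.5, 93.2 and 79.6 CPM in LI1 to LI4. Each HI library lay above each LI library, and the lowest HI value belonged to HI2, the library with the most ribosomal RNA. The mean was 118 ± 8.76 CPM in HI, against 89.6 ± 7.54 CPM in LI (SD, n = 4 each). The log2 fold change was 0.40 ± 0.11 (SE), a ratio of 1.32 with a 95% interval of 1.12 to 1.55, and its p of 0.00403 in edgeR's fit, before adjustment, ranked 34 of 11631. It was the least variable of the 5 genes within HI and within LI, with a coefficient of variation of 7.43% in HI and 8.42% in LI, where counting error alone gives 3.89% at its lowest count of 661.

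The difference in Kcnq3 kept its size when any 1 library was left out, with log2 fold changes between 0.34 and 0.43. DESeq2 put it past the threshold (adjusted p = 0.0968, log2 fold change 0.39 ± 0.11), together with 0.31% of all genes called higher in HI by that tool. Markers of microglia also separated the groups, in the opposite direction to Kcnq3. Their summed level was 199 to 234 CPM in HI, against 248 to 262 CPM in LI. All 6 markers were lower in HI and none was at 0 in any library. Inhibitory neuron markers also had lower values in HI for 6 of 8 genes, and their sum ranged over 667 to 755 CPM in HI, against 741 to 996 CPM in LI. Oligodendrocyte markers had lower values in HI for 7 of 7 (median log2 fold change -0.55) and striatal markers for 7 of 7 (median -0.62), both lists being highest in LI2. Meningeal markers had higher values in HI for 4 of 4 tested (median 1.67), with HI1 highest. The part of any of these in the result was not tested. In homogenate, fewer cells of a type and less RNA per cell cannot be told apart.

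Kcnq5, the other M-channel subunit of the set, had overlapping groups. It had 165, 120, 167 and 204 CPM in HI1 to HI4, against 136, 123, 159 and 121 CPM in LI1 to LI4. HI4 was the highest library and HI2 the lowest of all 8, below every LI library. The log2 fold change was 0.28 ± 0.16 (two-sided exact permutation p = 0.200 on log2 CPM), with a 95% interval of the ratio of 0.944 to 1.57. The log2 fold change was 0.16 without HI4 and 0.41 without HI2.

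Among the KCNH genes, Kcnh7, the ERG channel, had the largest difference in mean. It had 46.2, 33.9, 52.9 and 69.6 CPM in HI1 to HI4, against 33.2, 29.0, 42.2 and 33.0 CPM in LI1 to LI4. The groups overlapped only through LI3, which lay above HI2. The mean was 50.7 ± 14.9 CPM in HI, against 34.4 ± 5.59 CPM in LI (SD, n = 4 each). The log2 fold change was 0.56 ± 0.21, a ratio of 1.48 with a 95% interval of 1.06 to 2.05. Its p in edgeR's fit, before adjustment, ranked 260 of 11631. The two-sided exact permutation p was 0.0571 on log2 CPM. HI4 weighed most on the difference, and without that library the log2 fold change was 0.37. Its lowest count was 205, at which counting error alone gives a coefficient of variation of 6.98%, against 29.4% observed within HI.

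Kcnh1, the EAG channel, differed little. It had 90.7, 95.1, 112 and 93.3 CPM in HI1 to HI4, against 90.98, 92.9, 75.04 and 84.2 CPM in LI1 to LI4. HI3 was the highest library and LI3 the lowest, and the other 6 lay between 84.2 and 95.1 CPM. The log2 fold change was 0.19 ± 0.11 (two-sided exact permutation p = 0.0857 on log2 CPM), with a 95% interval of the ratio of 0.954 to 1.36, and it was 0.12 without HI3.

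Kcnh3, the ELK channel, had nearly equal means. It had 264, 269, 242 and 152 CPM in HI1 to HI4, against 280, 231, 170 and 249 CPM in LI1 to LI4. HI4 and LI3 were the 2 lowest libraries, one in each group, and the other 6 lay between 231 and 280 CPM. The log2 fold change was -0.01 ± 0.20 (two-sided exact permutation p = 0.914 on log2 CPM), with a 95% interval of the ratio of 0.727 to 1.36. Its sign turned without HI4 (0.15), without LI1 (0.09) or without LI4 (0.02), and without both HI4 and LI3 it was 0.03 ± 0.11.

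**Figure D2:**
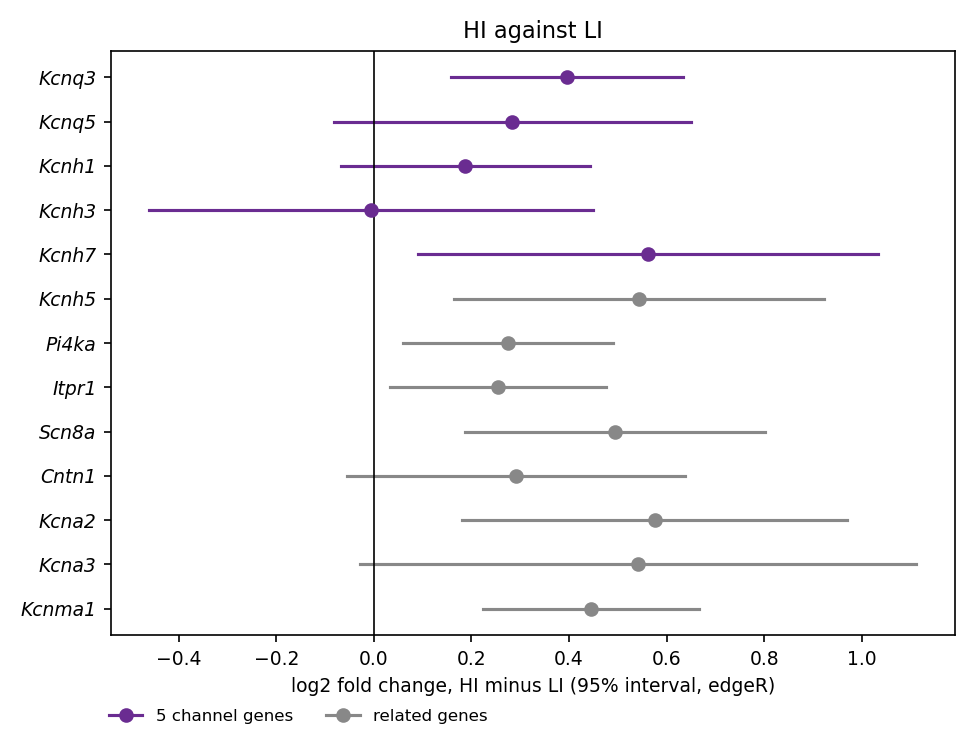
Log2 fold change, HI minus LI, with its 95% interval from edgeR (horizontal axis) for the 5 channel genes (purple) and for 8 related genes (grey). The intervals of Kcnq3 and Kcnh7 lie above 0 and those of Kcnq5, Kcnh1 and Kcnh3 cross it; no adjusted p is below 0.1.

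Kcnq5 and Kcnh7 ordered their 4 highest libraries alike, as HI4, HI3, HI1 and then LI3. Kcnh3 was lowest in HI4 and LI3, by 0.58 and 0.42 log2 units under its mean over the 8 libraries. In HI4 Kcnq5 stood 0.47 and Kcnh7 0.77 log2 units over their means. Kcnq3 stood at 0.18 in HI4 and -0.14 in LI3, values inside those of its own group. HI4 and LI3 are the libraries with the least ribosomal RNA, and they also had the highest summed level of 7 pan-neuronal markers, 12351 CPM in HI4 and 10016 CPM in LI3, against 5271 to 7528 CPM in the other 6. Excitatory neuron markers were lowest in the same libraries, 1789 CPM in HI4 and 1816 CPM in LI3, against 1924 to 2450 CPM in the other 6. Astrocyte markers were highest there, 4329 CPM in HI4 and 4186 CPM in LI3, against 3106 to 3899 CPM. The part of any of these in the pattern was not tested.

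**Figure D3:**
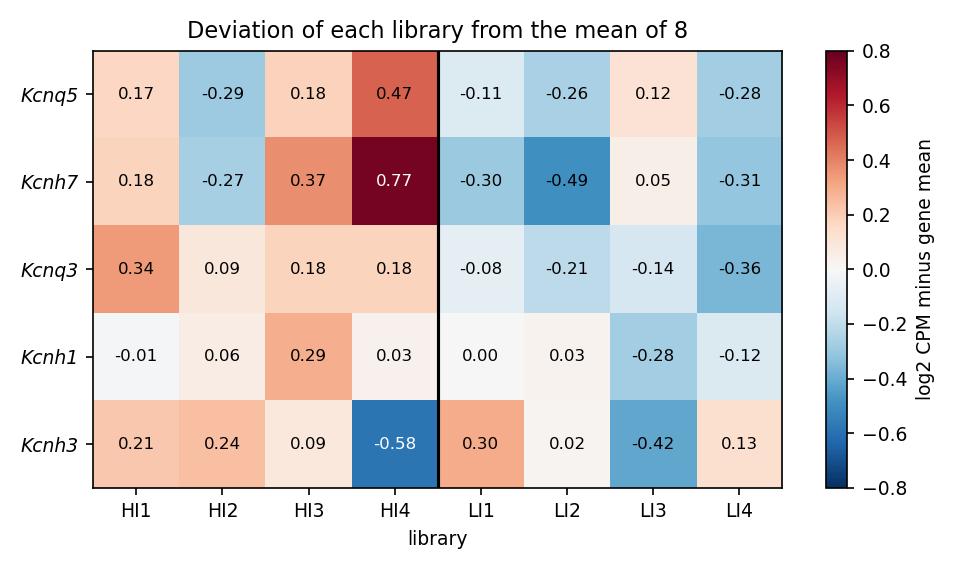
Log2 CPM of Kcnq5, Kcnh7, Kcnq3, Kcnh1 and Kcnh3 (rows) in each library (columns, HI left of the line), as the difference from the gene's mean over the 8 libraries. HI4 and LI3 are low for Kcnh3 (-0.58 and -0.42) and above the mean for Kcnq5 (0.47 and 0.12) and Kcnh7 (0.77 and 0.05).

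Within the KCNH family of 8 genes, Kcnh3 made up 51.8 ± 7.13% of the summed TPM in HI, against 55.0 ± 3.37% in LI (SD, n = 4 each, two-sided exact permutation p = 0.571). Kcnh1 made up 18.05 ± 2.45% in HI and 16.7 ± 1.48% in LI (exact permutation p = 0.343), and Kcnh7 11.6 ± 5.01% in HI and 8.24 ± 2.66% in LI (exact permutation p = 0.314). Kcnh7 reached 18.7% in HI4 and 12.2% in LI3, and lay between 6.73% and 11.01% in the other 6 libraries. HI4 and LI3 are also the libraries with the least ribosomal RNA, whose part in the shares was not tested. Shares were tested for all 8 genes, and the smallest p that 4 against 4 allows, 0.0286, was met by Kcnh2, at 8.63 ± 0.81% in HI and 10.6 ± 0.994% in LI (exact permutation, 0.229 after Benjamini-Hochberg adjustment over the 8). A share also moves with the other genes of the sum. In CPM the groups overlapped for Kcnh2, with a log2 fold change of -0.22 ± 0.19.

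**Figure D4:**
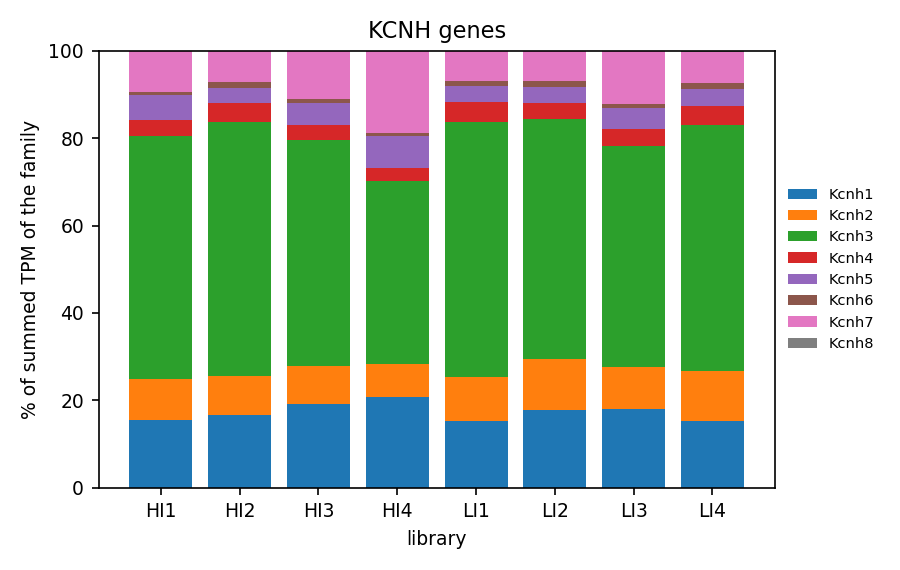
Share of each gene in the summed TPM of the 8 KCNH genes (vertical axis, percent) in each library (horizontal axis), as stacked bars that reach 100%; Kcnh8 is too small to see. HI4 and LI3 have the largest Kcnh7 shares (18.7% and 12.2%) and the smallest Kcnh3 shares (41.8% and 50.5%).

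With the ribosomal RNA share of each library taken into account on a log2 scale, an analysis added after the data were seen, 3 of the 5 genes passed the threshold in edgeR, where 2.77% of all genes were called higher in HI. Kcnh7 had a log2 fold change of 0.66 ± 0.10 (adjusted p = 0.0485, edgeR), Kcnq3 of 0.40 ± 0.09 (adjusted p = 0.0737, edgeR) and Kcnq5 of 0.36 ± 0.10 (adjusted p = 0.0966, edgeR). Kcnh1, at 0.17 ± 0.09, and Kcnh3, at -0.15 ± 0.11, did not pass. None of the 5 passed in the same fit without HI4 or without LI3, in which 0 genes of the whole table did, nor with the share on a linear scale. The fold changes of Kcnq3, Kcnq5 and Kcnh7 in the 2 reduced fits stayed between 0.35 and 0.65, with Kcnq3 at 0.42 in both.

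The slope on transcript length of log2 CPM, taken as the difference from each gene's mean over the 8 libraries, in log2 units per doubling of length, was -0.00778, 0.00898, -0.00457 and 0.132 in HI1 to HI4, against -0.0835, -0.0286, 0.00541 and -0.0221 in LI1 to LI4. HI4 stood alone at the top, and the other HI libraries lay near 0 and overlapped the LI libraries. The mean was 0.03 ± 0.07 in HI, against -0.03 ± 0.04 in LI (SD, n = 4 each, two-sided exact permutation p = 0.0857). The transcripts of the 5 genes are long, from 3715 nt for Kcnh3 to 5798 nt for Kcnq3. With log2 CPM corrected for length within each library, limma gave 0.29 ± 0.12 for Kcnq3, against 0.40 ± 0.11 without the correction. It gave 0.47 ± 0.21 for Kcnh7, against 0.52 ± 0.21 without it. Kcnq5 stood at 0.21 ± 0.16 and Kcnh1 at 0.11 ± 0.13 after the correction. With each library's length slope as a covariate in edgeR, a fit also added after the data were seen, Kcnq3 stood at 0.43 ± 0.11, Kcnh7 at 0.28 ± 0.19, Kcnq5 at 0.11 ± 0.16, Kcnh1 at 0.26 ± 0.12 and Kcnh3 at 0.36 ± 0.12, none past an adjusted p of 0.1.

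**Figure D5:**
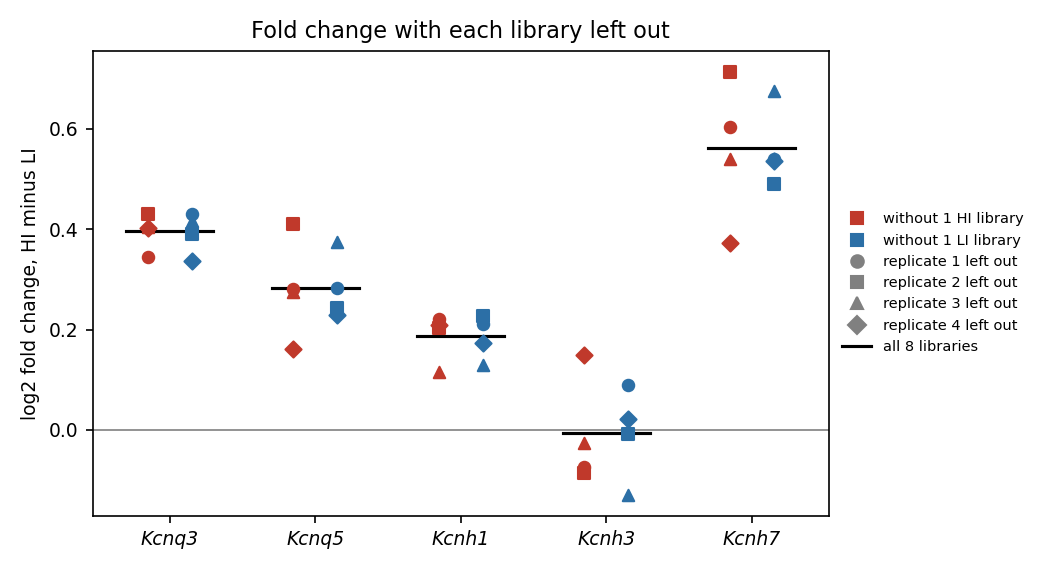
Log2 fold change, HI minus LI (vertical axis), of each of the 5 genes with 1 library left out (red for an HI library, blue for an LI library, marker shape for its replicate number) and with all 8 libraries (black line). Kcnq3 stays between 0.34 and 0.43, while Kcnh7 ranges between 0.37 and 0.71 and Kcnh3 lies on both sides of 0.

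The other genes of the pathway were read from lists of related channels, regulators and anchors, and 0 of the 100 list genes tested passed the threshold in edgeR. Among 5 tested KCNQ and KCNH relatives, 2 had higher values in HI and the median log2 fold change was -0.11. Kcnh5, the second EAG channel, had 25.3, 15.4, 22.7 and 25.3 CPM in HI1 to HI4, against 16.03, 14.5, 15.2 and 15.3 CPM in LI1 to LI4. HI2 lay within the narrow LI range and the other HI libraries above it, a log2 fold change of 0.54 ± 0.17. Kcnq1 and Kcnh8 were removed by the low-count filter, with at most 4 counts for Kcnq1 and 8 for Kcnh8 in any library. Of the KCNE auxiliary subunits only Kcne2 (-0.31 ± 0.51) and Kcne1l (0.15 ± 0.74) had enough counts to be tested, at under 2 CPM on average in each group, and the sign of Kcne1l turned in several of the alternative analyses.

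Genes that control the M-current through Gq, PIP2 and calmodulin had higher values in HI for 19 of 25, against 48.5% of all genes tested. Their median log2 fold change was 0.10, against -0.01 over all genes. Pi4ka, a kinase that makes the precursor of PIP2, averaged 478 ± 24.7 CPM in HI, against 395 ± 25.7 CPM in LI (SD, n = 4), a log2 fold change of 0.28 ± 0.10. Itpr1, the calcium release channel opened by the product of PIP2 cleavage, stood at 1000 ± 35.7 CPM in HI, against 838 ± 67.1 CPM in LI, a log2 fold change of 0.25 ± 0.10. Pi4ka and Itpr1 are named because they had the smallest edgeR p of this list, a choice that favours groups without overlap. In both the groups did not overlap, as in 2.31% of all genes taken without such a choice. After the correction for length the log2 fold change was 0.16 for Pi4ka and 0.09 for Itpr1. The muscarinic receptor gene Chrm5 and the bradykinin receptor gene Bdkrb2 were among the list genes too low to test.

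M-channels are held at the axon initial segment together with sodium channels, and 7 of 10 tested genes of that site had higher values in HI and the median was 0.19. Scn8a, a sodium channel concentrated there, stood at 335 ± 17.4 CPM in HI, against 238 ± 44.1 CPM in LI, a log2 fold change of 0.49 ± 0.14, with no overlap between the groups. Cntn1, an adhesion molecule, differed by 0.29 ± 0.16, and by 0.16 without HI4. Other voltage-gated potassium channel genes and their auxiliary subunits had higher values in HI for 23 of 33, with a median of 0.08. In that list the Shaker channel Kcna2 differed by 0.58 ± 0.18 and Kcna3 by 0.54 ± 0.26, with overlapping groups in both. Calcium-activated, inward-rectifier, leak and HCN channel genes had higher values for 18 of 25, with a median of 0.10. Kcnma1, the large-conductance calcium-activated channel, differed by 0.44 ± 0.10 with no overlap. Over all genes tested, 48.5% had the higher value in HI, and 2.31% had groups without overlap with HI on top. Each gene named here was among the 2 with the smallest edgeR p in its list, a choice that favours groups without overlap. In limma the correction for length lowered Scn8a from 0.51 to 0.39 and Kcnma1 from 0.44 to 0.35.

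The genes most like each channel gene across the 8 libraries were taken by Pearson correlation of log2 CPM, chosen among all tested genes and so given without a test. For Kcnq3 they were Tnks2 (r = 0.981), Tmem56 (r = 0.961) and Camsap1 (r = 0.958). For Kcnq5 they were Ywhaz (r = 0.9754), Pcdhac2 (r = 0.9746) and Gpr158 (r = 0.973), and for Kcnh7 they included Dpp10 (r = 0.988), an auxiliary subunit of A-type potassium channels, and Tmx4 (r = 0.980). For Kcnh1 they were Nos1ap (r = 0.983), Cyth3 (r = 0.976) and Ace (r = 0.967). For Kcnh3 they were Cebpb (r = 0.988), Fuz (r = 0.987) and Lrrc73 (r = 0.986). Over the 6 libraries without HI4 and LI3 the values for Kcnq3, Kcnq5, Kcnh7 and Kcnh1 lay between 0.942 and 0.995, while those for Kcnh3 lay between 0.807 and 0.868.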

How the data were processed

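RNA from medial prefrontal cortex homogenate was isolated with TRIzol and RNeasy columns, per the labels' protocols. Per the file headers, each deposited table holds one expected count (estimated reads), TPM and FPKM per gene. FPKM, as deposited, was left aside. The submitters' processing notes name Bowtie2 2.1.0. The counting program, genome build, annotation and strand setting are unstated: not given in the sources used.

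Expected counts were rounded, filtered with filterByExpr (minimum count 10, minimum total 15), scaled by TMM and tested, HI against LI, with the quasi-likelihood test of edgeR 4.0.16 (R 4.3.3), adjusted by Benjamini-Hochberg over 11631 genes. The threshold of 0.1 is that of the series' design text, which names Fisher's exact test. Each SE is the size of the log2 fold change over the root of its F statistic. Alternatives used DESeq2 1.42.0 and limma 3.58.1. Log2 CPM used a prior count of 2. The scripts were tested on simulated data. Promoters are from RefSeq (GRCr8). Ribosomal RNA was taken as the Rn45s and Rn28s rows. Within groups no libraries were identical or within sampling noise of each other. Named beside the 5 members are the 2 genes with the smallest p in each list and the 3 genes most like each member; some that this rule takes are not reported here. Members and lists were chosen with earlier results of these data known. Counting precision covers counting error only.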

Additional observations from a re-analysis of the deposited data

Results flagged for a closer look

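Scn8a in HI3 lay far from the other 3 HI libraries, at 361 CPM (8.495 as log2 CPM), where the others had 323 to 329 CPM. The gap was 0.833 of the range of the group, just above Dixon's limit for 4 samples. It was the only one of 34 groups of 4 libraries examined, and chance alone flags some such groups.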

How the results depend on the processing

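Kcnq3, Kcnq5, Kcnh1 and Kcnh7 kept a higher value in HI in all 30 alternatives, and Kcnh3 kept its sign in 24. Leaving out 1 library gave 0.34 to 0.43 for Kcnq3, 0.16 to 0.41 for Kcnq5, 0.12 to 0.23 for Kcnh1, -0.13 to 0.15 for Kcnh3 and 0.37 to 0.71 for Kcnh7. Kcnh3 was 0.027 without HI4 and LI3, 0.072 with the linear ribosomal RNA share and without HI4, and 0.36 with the length slope as covariate. DESeq2 called 38 genes, 1 list gene (Kcnma1) and 1 of the 5, Kcnq3 at 0.39; edgeR's exact test called 1 gene. The Fisher test called 6602 genes, 58 list genes and 5 of the 5 (Kcnq3 0.31, Kcnq5 0.21, Kcnh1 0.088, Kcnh3 -0.12, Kcnh7 0.48); it takes no account of the spread between libraries. The log2 ribosomal RNA share as covariate gave 440 genes, 11 list genes and 3 of the 5 (Kcnq3 0.40, Kcnq5 0.36, Kcnh7 0.66), and 0 genes without HI4 or without LI3. Library totals alone shifted the median of all genes to -0.12 and Kcnh1 to 0.08. The lowly counted Kcne1l turned to -0.52 (limma-voom), -0.19 and -0.85 (log2 TPM with pseudocounts of 1 and 0.1), -0.088 and -0.19 (log2 CPM with and without the length correction), and -0.44 and -0.54 (linear and log2 ribosomal RNA share). In those 2 fits it was -0.64 and -0.58 without LI3, and -0.10 on the log2 scale without HI4; leaving out 1 library gave -0.27 to 0.55. Kcne2 turned to 0.22 with the length slope. Where no cause is named, it was not tested. Deviations of same-numbered libraries correlated at 0.22, 0.54, -0.05 and 0.06. HI1 and HI2 both correlated best with LI2, and HI4 with LI3 (0.78). With so few libraries, these values cannot tell whether the replicate numbers mark a pairing or a batch. With a replicate block 0 genes were called, and Kcnq3 was 0.40, Kcnq5 0.27, Kcnh1 0.19, Kcnh3 -0.02 and Kcnh7 0.53. Depth limited the genes that failed the low-count filter, which were not tested; for the 5 members counting error was below the spread between libraries.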
